A study of Oryza sativa Japonica Group with 4 samples.

Results

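The short arms of rice chromosomes 4 and 10 are described here by the differentially methylated regions (DMRs) that lie on them. A region of either DMR list, in any cytosine context, was taken as a member when its midpoint lay in the first 7.7 Mb of chromosome 4 or the first 6.2 Mb of chromosome 10 in MSU7.0 coordinates. This rule used position only and no methylation value. It gave 44558 of the 1245898 listed regions, with 24701 on chromosome 4 and 19857 on chromosome 10. Of these, 9831 were hypo-DMRs, which lost methylation after zebularine, and 34727 were hyper-DMRs, which gained methylation after M.CviP I. The long arms, chromosome 4 above 11.7 Mb and chromosome 10 above 10.2 Mb, held 124580 regions. Another 24852 regions lay between the arms, and the other 10 chromosomes held 1051908.

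The study examined how DNA methylation bears on the folding of i-motifs, 4-stranded structures of C-rich DNA, and used bisulfite sequencing to measure methylation in 4 libraries of Nipponbare rice, 1 per condition. Zebularine was given to 5-day-old seedlings at 80 µM for 5 days, and its CK received DMSO alone for as long. For the other pair, M.CviP I (8 units) and the methyl donor SAM (640 µM) acted for 1 h at 37°C on 4 µg of DNA from rice nuclei, and its CK was rice DNA without the enzyme treatment. The labels give 2-week-old plants for the untreated growth and name no separate replicate of any library. All libraries came from whole seedlings of wild-type rice, so a level between 0 and 1 is a mean over cells and chromosome copies, which cannot be told apart. M.CviP I acted on naked DNA in a tube, without chromatin or the enzymes of the plant.

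Plant DNA is methylated in the contexts CG, CHG and CHH, where H is A, C or T. CG methylation is copied after replication by the methyltransferase MET1, CHG methylation is kept by CMT3 in a loop with methylation of histone H3, and CHH methylation is laid down by CMT2 in long transposons and by the RNA-directed pathway at short ones and at transposon edges. In rice, the short arms of chromosomes 4 and 10 are known from cytology as largely heterochromatic, with many transposons and few active genes. Zebularine is a cytidine analogue that traps DNA methyltransferases, and M.CviP I is known to methylate the cytosine of GC dinucleotides, although the labels describe it as a CpG enzyme.

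The short arms together measured 13.9 Mb and the long arms 36.8 Mb. The short arms made up 3.72% of the length of the 12 chromosomes, and they held 5.18% of all hypo-DMRs and 3.29% of all hyper-DMRs. The lists hold no histone mark, repeat or gene, and the name heterochromatic could not be checked against a marker here. CG hypo-DMRs covered 23.9% of the short arms and 13.5% of the long arms, and their median CG level in CK was 0.952 on the short arms and 0.951 on the long arms. A region must be methylated in CK to be listed for a loss, so these levels are partly set by the listing. The borders come from the rule and were not visible as a step in the data. On chromosome 4, the last 0.5 Mb of the short arm held 792 CG hypo-DMRs per Mb and the next 0.5 Mb outside it 804 per Mb. On chromosome 10, the values were 656 per Mb inside and 758 per Mb outside the border. A region is listed only where the treated library and its CK differed by at least 0.1, so the levels elsewhere on the arms are not known from the lists. Each condition had 1 library and the read depth is unknown, so no test was made. The values below compare arms within the same pair of libraries and are given for each chromosome to show how far they vary.

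CG hypo-DMRs were denser on the short arms than on the long arms of both chromosomes. The short arms held 9511 CG hypo-DMRs, or 684 per Mb, against 15280 or 415 per Mb on the long arms, a ratio of 1.65. On chromosome 4 there were 733 per Mb on the short arm and 407 per Mb on the long arm, and on chromosome 10 there were 623 and 430 per Mb on the short and the long arm. The other 10 chromosomes held 480 per Mb. Of windows of 500 bp, 45.4% on the short arms and 28.0% on the long arms overlapped CG hypo-DMRs by 1 base or more, against 32.6% of windows genome-wide.

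CHG hypo-DMRs were much fewer but were distributed in the same manner. The short arms held 190 of them, or 13.7 per Mb, against 297 or 8.07 per Mb on the long arms. The ratio of short to long arm was 1.89 on chromosome 4 and 1.42 on chromosome 10. They touched 1.10% of the windows on the short arms and 0.637% on the long arms, against 0.853% genome-wide. CHH hypo-DMRs did not share this distribution. The short arms held 130, or 9.35 per Mb, against 382 or 10.4 per Mb on the long arms, and the shares of windows were 0.662% on the short arms, 0.747% on the long arms and 0.747% genome-wide. With so few CHH regions, the ratio of 0.901 lay close to an even distribution.

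In the hyper-DMR list, CG and CHG regions were sparser on the short arms. CG hyper-DMRs numbered 2451 on the short arms, or 176 per Mb, against 13694 or 372 per Mb on the long arms. This ratio of 0.474 was made up of 0.403 on chromosome 4 and 0.593 on chromosome 10. CHG hyper-DMRs numbered 7702 on the short arms, or 554 per Mb, against 30743 or 835 per Mb on the long arms, with ratios of 0.630 on chromosome 4 and 0.712 on chromosome 10. CG hyper-DMRs touched 12.1% of the windows on the short arms and 24.5% on the long arms, against 20.6% genome-wide. For CHG hyper-DMRs these shares were 38.1% on the short arms, 53.1% on the long arms and 48.9% genome-wide.

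CHH hyper-DMRs lay almost everywhere and their number hardly depended on the arm. The short arms held 24574, or 1768 per Mb, against 64184 or 1744 per Mb on the long arms. They touched 94.7% of the windows on the short arms and 94.0% on the long arms, against 94.4% genome-wide. They covered 81.2% of the short arms and 79.5% of the long arms with regions of at most 501 bp. Their number per Mb therefore had little room to be higher on either arm. Accordingly, the balance of the sets differed between the arms. There were 3.88 CG hypo-DMRs for each CG hyper-DMR on the short arms, against 1.12 on the long arms, and this ratio was 4.64 on the short arm of chromosome 4 and 3.13 on that of chromosome 10. A loss can be listed only where CK was methylated and a gain only where CK left room, so both counts are partly set by the CK level. The ratio was not particular to the short arms, since the first 3 steps of 2 Mb on the long arm of chromosome 4 had 4.48, 5.59 and 3.53, and the first 2 Mb of chromosome 9 had 5.69. There were 10.03 CHH hyper-DMRs per CG hyper-DMR on the short arms and 4.69 on the long arms. With CHH densities nearly even, this mostly restates the lower density of CG hyper-DMRs on the short arms.

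**Figure D1:**
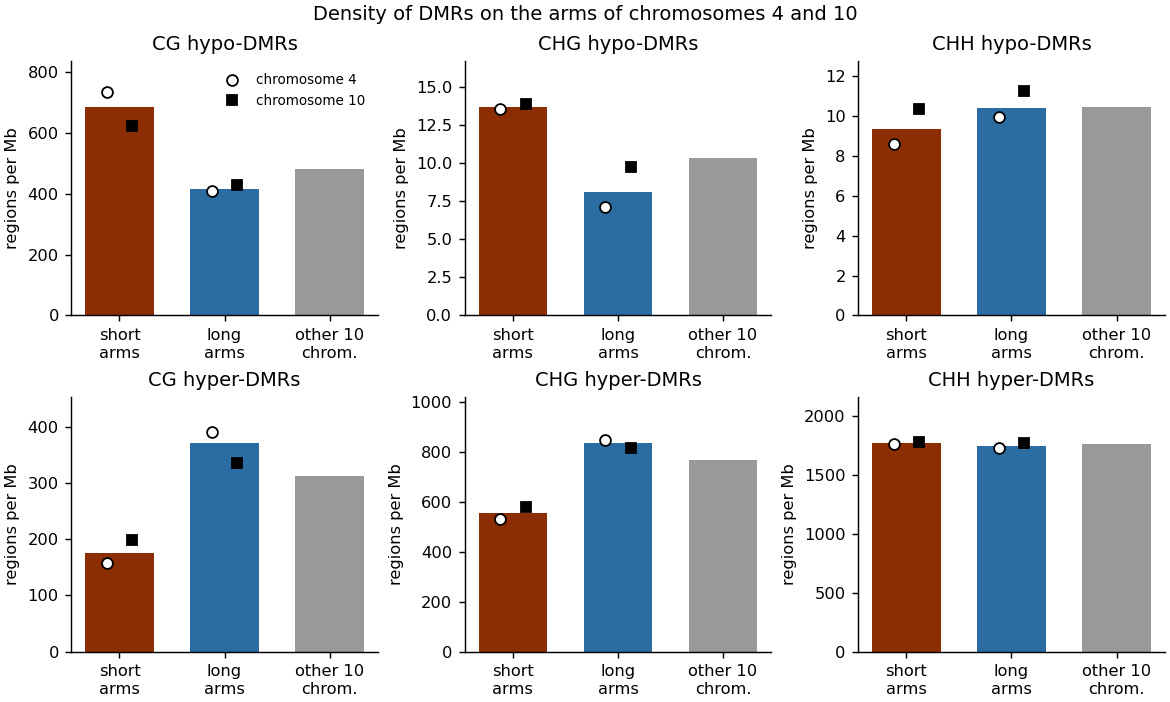
Density of DMRs in regions per Mb on the short arms, the long arms and the other 10 chromosomes (bars), in a panel for each list and context, with chromosome 4 as open circles and chromosome 10 as filled squares. CG and CHG hypo-DMRs are denser and CG and CHG hyper-DMRs sparser on the short arms of both chromosomes, whereas CHH hyper-DMRs stand at 1768 per Mb on the short arms and 1744 per Mb on the long arms.

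These densities could depend on how much of an arm could be called at all. Regions of either list and any context together covered 85.2% of the short arms and 83.5% of the long arms. CHH hyper-DMRs of the M.CviP I pair alone covered 81.2% of the short arms and 79.5% of the long arms. The joint cover therefore does not show how much could be called in the zebularine pair. Stretches of at least 10 kb without any region numbered 2 on the short arms, both on chromosome 10, with the longest at 20096 bp, and 6 on the long arms, with the longest at 60683 bp. They made up 0.289% of the short arms and 0.358% of the long arms. The part of mapping in the densities was not tested.

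To see whether the whole arms or a few places carried the difference, the arms were divided into bins of 0.5 Mb counted from the borders, which gave 27 complete bins on the short arms and 73 on the long arms. CG hypo-DMRs ranged over 486 to 956 per Mb in the short arm bins, with a median of 656, and over 196 to 906 per Mb in the long arm bins, with a median of 372. Thus 27 of the 27 short arm bins lay above the long arm median, although 19 long arm bins fell within the range of the short arms. CG hyper-DMRs ranged over 68 to 280 per Mb on the short arms and 64 to 616 per Mb on the long arms, and 27 of the 27 short arm bins lay below the long arm median of 422. The same held for CHG hyper-DMRs, at 308 to 756 per Mb on the short arms against a long arm median of 850. For CHH hyper-DMRs, 18 of the 27 short arm bins lay above the long arm median and 9 below it. CHG hypo-DMRs lay above it in 21 bins, and CHH hypo-DMRs above it in 8 bins and below it in 13.

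The short arm bins differed among themselves, and the extremes of several sets fell in the same places. The densest bin for CG hypo-DMRs, 2.7 to 3.2 Mb on chromosome 4 with 956 per Mb, was also 1 of 2 that shared the highest density of CHG hypo-DMRs, 26 per Mb. The lowest density of both CG and CHG hyper-DMRs was found from 3.7 to 4.2 Mb on chromosome 4, with 68 and 308 per Mb. In contrast, the first complete bin of chromosome 4, 0.2 to 0.7 Mb, had the fewest CG hypo-DMRs with 486 per Mb, the fewest CHG hypo-DMRs with 2 per Mb and the most CHG hyper-DMRs with 756 per Mb. Chromosome 10 held the bin with the most CG hyper-DMRs, 280 per Mb at 2.7 to 3.2 Mb. It also held the bin with the fewest CHH hyper-DMRs, 1562 per Mb at 3.7 to 4.2 Mb, which had the most CHH hypo-DMRs, 16 per Mb.

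The long arms were not uniform either, and their inner ends resembled the short arms. In steps of 2 Mb, the short arms held 577 to 791 CG hypo-DMRs and 132 to 215 CG hyper-DMRs per Mb. On the long arm of chromosome 4, the first 3 steps beyond 11.7 Mb held 692.5, 573 and 636.5 CG hypo-DMRs per Mb and 154.5, 102.5 and 180.5 CG hyper-DMRs per Mb. From 19.7 Mb onward, the steps held 265 to 359 CG hypo-DMRs and 433 to 549 CG hyper-DMRs per Mb. On the long arm of chromosome 10, the first 2 steps held 556.5 and 642.5 CG hypo-DMRs per Mb, and the last 2 held 291.5 and 321. The densities in these inner parts of the long arms lay near those of the short arms, and the difference between the arms came with the outer parts of the long arms.

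**Figure D2:**
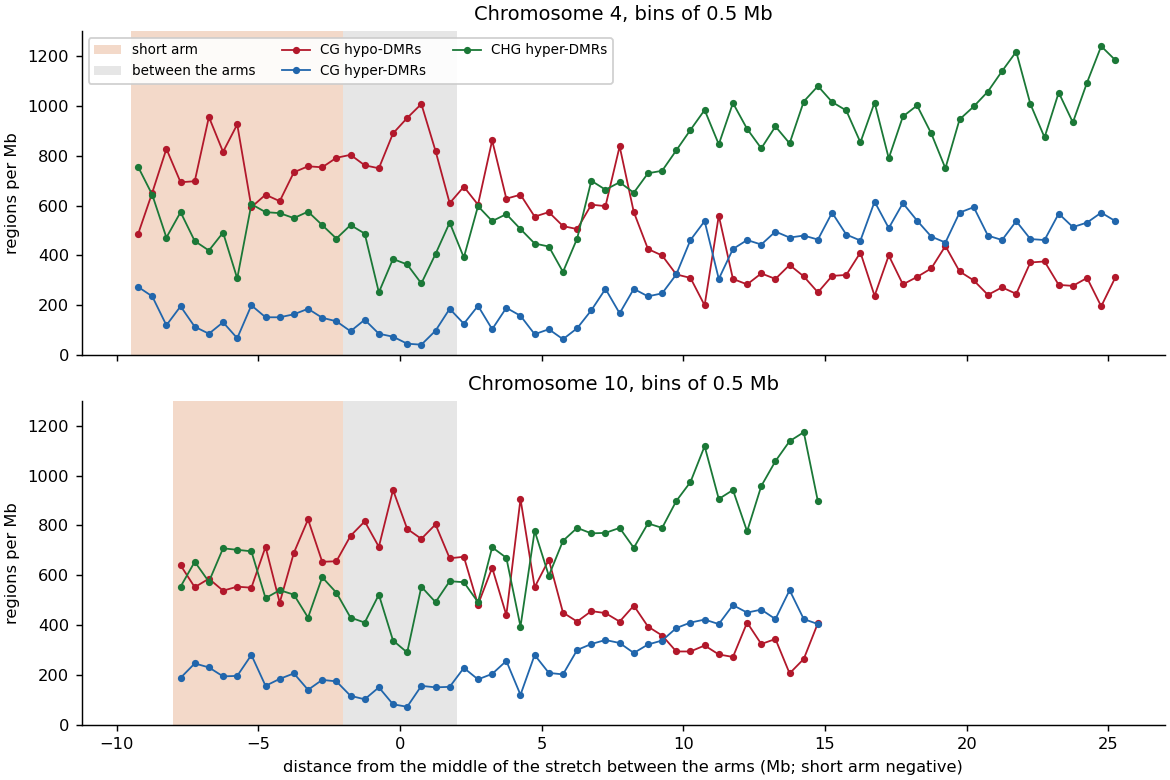
Regions per Mb in bins of 0.5 Mb along chromosome 4 (top) and chromosome 10 (bottom), plotted against the distance in Mb from the middle of the stretch between the arms, with the short arm on the negative side (tan) and the stretch between the arms in grey. On the short arms CG hypo-DMRs (red) stay at 486 to 956 per Mb and CG hyper-DMRs (blue) at 68 to 280 per Mb, while on the long arms the red line drops and the blue and green (CHG hyper-DMRs) lines climb with distance.

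A chromosome end is usually far from the centromere, so the first 2 Mb of chromosomes 4 and 10 were set beside the other 22 chromosome ends. The first 2 Mb held 671 CG hypo-DMRs per Mb on chromosome 4 and 595.5 per Mb on chromosome 10, against 258.5 to 722.5 per Mb at the other ends, with a median of 338. CG hyper-DMRs stood at 206.5 and 222.5 per Mb on chromosomes 4 and 10, against 127 to 538.5 per Mb at the other ends. CHG hyper-DMRs stood at 619 per Mb on chromosome 4 and 600.5 per Mb on chromosome 10, against 538 to 1127.5 per Mb at the others. In these 3 sets, a single other end, the first 2 Mb of chromosome 9, went further than chromosomes 4 and 10, with 722.5 CG hypo-DMRs, 127 CG hyper-DMRs and 538 CHG hyper-DMRs per Mb.

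The levels of CG hypo-DMRs were nearly the same on all arms, although their number was not. On the short arms the median level was 0.793 after zebularine and 0.952 in its CK, and on the long arms it was 0.788 after zebularine and 0.951 in CK. The median difference was -0.156 on the short arms and -0.160 on the long arms, and the loss was under 0.2 in 78.0% of short arm regions and 73.7% of long arm regions. The arms differed more in the lower tail of CK. Of the CG hypo-DMRs, 92.7% on the short arms and 87.9% on the long arms had a CK level of 0.9 or above, and the percentile 5 of the CK level was 0.884 on the short arms and 0.837 on the long arms. Losses of at least 0.2 were also denser on the short arms, at 151 per Mb against 109 per Mb on the long arms, a ratio of 1.38. Losses of at least 0.5 were rare, with 13 regions or 0.137% on the short arms and 42 or 0.275% on the long arms.

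CHG hypo-DMRs of the short arms had median levels of 0.538 after zebularine and 0.772 in CK, and those of the long arms 0.504 after zebularine and 0.726 in CK. This order held on chromosome 10, with 0.565 after zebularine and 0.790 in CK on the short arm against 0.447 and 0.716 on the long arm. It did not hold on chromosome 4, where the short arm had 0.512 after zebularine and 0.743 in CK and the long arm had 0.535 and 0.751. The CK medians of the short and long arms differed by 0.0457. The ends of the separate 95% binomial intervals of both medians span a difference of -0.0454 to 0.0905. These intervals count regions of 1 library per condition as independent, so the range is a description and no conclusion was drawn from it. CHH hypo-DMRs started from low levels on every arm. Their medians were 0.0388 after zebularine and 0.179 in CK on the short arms, and 0.0367 after zebularine and 0.179 in CK on the long arms.

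**Figure D3:**
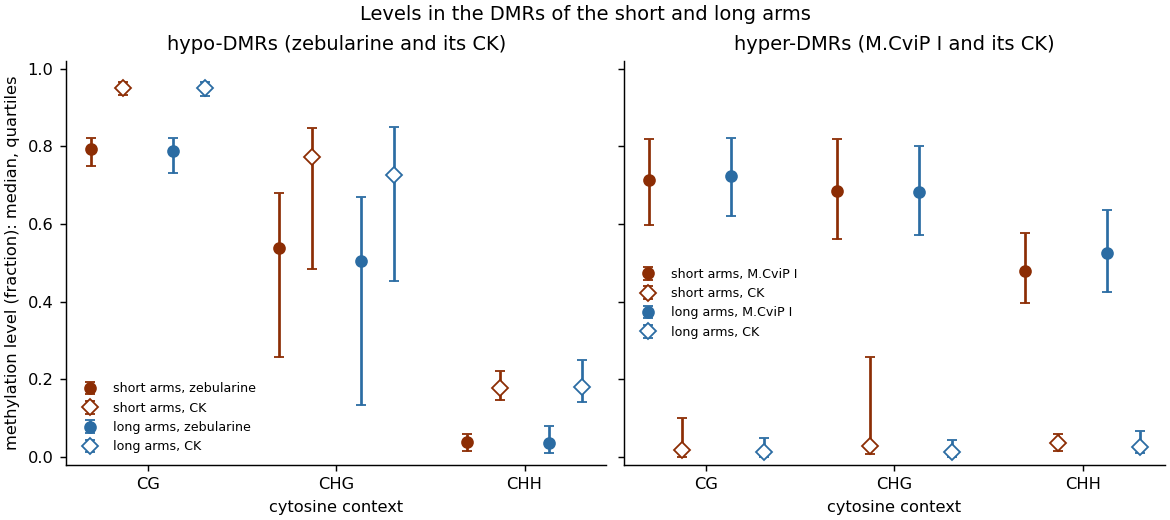
Median methylation level (fraction) with quartiles over regions, for hypo-DMRs (left, zebularine and its CK) and hyper-DMRs (right, M.CviP I and its CK), with treated levels as filled circles and CK levels as open diamonds, short arms in brown and long arms in blue. The CG hypo-DMRs almost coincide between the arms, at 0.952 and 0.951 in CK, whereas the upper quartile of CK in CHG hyper-DMRs reaches 0.258 on the short arms and 0.0448 on the long arms.

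Among hyper-DMRs, the CK levels of CHG regions differed most between the arms. CG hyper-DMRs had median levels of 0.714 after M.CviP I and 0.0182 in CK on the short arms, and 0.725 after M.CviP I and 0.0127 in CK on the long arms. CHG hyper-DMRs reached 0.685 after M.CviP I on the short arms and 0.683 on the long arms, from CK medians of 0.0278 on the short arms and 0.0121 on the long arms. The median gain in CHG was 0.516 on the short arms and 0.620 on the long arms. The upper quartile of the CK level was 0.258 on the short arms against 0.0448 on the long arms, and it was higher on the short arm of chromosome 4, at 0.331, than on that of chromosome 10, at 0.2004.

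The CHG hyper-DMRs were therefore split by their level in CK. Regions nearly free of CHG methylation in CK, under 0.05, numbered 4380 on the short arms, or 315 per Mb, against 23277 or 632 per Mb on the long arms. They made up 56.9% of the CHG hyper-DMRs on the short arms and 75.7% on the long arms. By contrast, regions with a CK level of at least 0.5 numbered 1100 on the short arms, or 79.1 per Mb, against 1446 or 39.3 per Mb on the long arms, a ratio of 2.01. This ratio was 2.27 on chromosome 4 and 1.70 on chromosome 10. In bins of 0.5 Mb, these regions stood at 48 to 116 per Mb on the short arms and 8 to 172 per Mb on the long arms, and 27 of the 27 short arm bins lay above the long arm median of 32. The first 2 long arm bins were near the short arms, with 64 and 74 per Mb on chromosome 4 and 72 and 42 per Mb on chromosome 10. Of the 1100 regions, 71.6% overlapped CG hypo-DMRs of the zebularine pair, against 67.3% of the 1446 on the long arms. Over all CHG hyper-DMRs this overlap was 26.0% on the short arms and 15.0% on the long arms. CG hypo-DMRs covered 23.9% of the short arms and 13.5% of the long arms, and they touched 45.4% and 28.0% of the 500 bp windows there. The lower overall density of CHG hyper-DMRs on the short arms thus held for regions unmethylated in CK and went the other way for regions already methylated in CK, where the median level was 0.871 after M.CviP I on the short arms and 0.869 on the long arms.

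CG hyper-DMRs with a CK level of at least 0.5 were few on both arms, with 8.56 per Mb on the short arms and 9.51 per Mb on the long arms, while those under 0.05 stood at 121 per Mb on the short arms and 278 per Mb on the long arms. In CHH, regions already methylated in CK were sparser on the short arms. Regions with a CHH level of at least 0.2 in CK numbered 435 on the short arms, or 31.3 per Mb, against 3458 or 93.9 per Mb on the long arms, a ratio of 0.333. The ratio was 0.267 on chromosome 4 and 0.414 on chromosome 10. In bins, they stood at 0 to 68 per Mb on the short arms and 4 to 182 per Mb on the long arms, with 27 of the 27 short arm bins below the long arm median of 102. The first 2 long arm bins lay within the short arm range, with 22 and 44 per Mb on chromosome 4 and 16 and 26 per Mb on chromosome 10. Regions under 0.05 were as dense on the short arms as on the long arms, at 1164 and 1163 per Mb, and regions at 0.05 to 0.2 were denser on the short arms, at 573 against 486 per Mb.

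**Figure D4:**
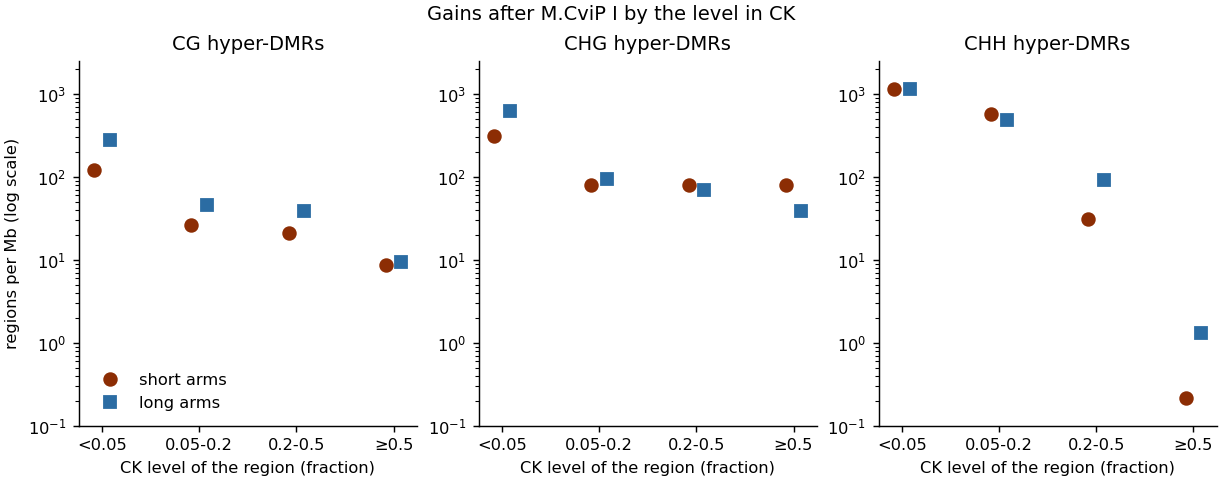
Hyper-DMRs per Mb (log scale) on the short arms (brown circles) and long arms (blue squares), split by the level of the region in the CK for M.CviP I, for CG, CHG and CHH. In CHG, regions under 0.05 are sparser on the short arms (315 against 632 per Mb) and regions of at least 0.5 denser (79.1 against 39.3 per Mb), and in CHH the regions of 0.2 and above are sparser.

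The CHH level reached after M.CviP I was lower on the short arms. CHH hyper-DMRs had median levels of 0.479 after M.CviP I and 0.0367 in CK on the short arms, and 0.527 after M.CviP I and 0.0255 in CK on the long arms. Levels of at least 0.5 after treatment were found in 43.9% of these regions on the short arms and 56.6% on the long arms. The short arm medians were 0.483 on chromosome 4 and 0.476 on chromosome 10, against long arm medians of 0.534 on chromosome 4 and 0.515 on chromosome 10. By bins of 0.5 Mb, the median ranged over 0.461 to 0.504 on the short arms and 0.458 to 0.608 on the long arms, and 27 of the 27 short arm bins lay below the long arm median of 0.529. The inner ends of the long arms were close to the short arms here too, with 0.479 in the first 2 Mb on both chromosomes. At the start of the short arms, the first 2 Mb had medians of 0.490 on chromosome 4 and 0.476 on chromosome 10, against 0.482 to 0.585 at the other 22 chromosome ends, where the lowest was again that of the first 2 Mb of chromosome 9. By CK level, regions under 0.05 had 0.505 on the short arms and 0.572 on the long arms, whereas the 7965 short arm and 17901 long arm regions at 0.05 to 0.2 had the same median of 0.435.

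Since CHH hyper-DMRs often overlap gains in the other contexts, they were divided by these overlaps. On the short arms, 58.1% of CHH hyper-DMRs overlapped neither CG nor CHG hyper-DMRs, 29.9% overlapped CHG hyper-DMRs alone, 2.35% CG hyper-DMRs alone and 9.65% both. On the long arms, 39.7% overlapped neither, 35.7% CHG alone, 4.18% CG alone and 20.4% both. CHG hyper-DMRs covered 19.1% of the short arms and 27.4% of the long arms, and CG hyper-DMRs covered 4.59% of the short arms and 9.94% of the long arms, so fewer overlaps went with less cover. Among CHH regions with neither, the median CHH level after M.CviP I was 0.446 on the short arms and 0.446 on the long arms. By chromosome, it was 0.453 on the short arm and 0.448 on the long arm of chromosome 4, and 0.437 on the short arm and 0.443 on the long arm of chromosome 10. Among regions with CHG alone the median was 0.521 on the short arms and 0.557 on the long arms, and among regions with both it was 0.613 on the short arms and 0.651 on the long arms. The classes were set by gains in the same pair of libraries as the CHH level, so these medians are a description.

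**Figure D5:**
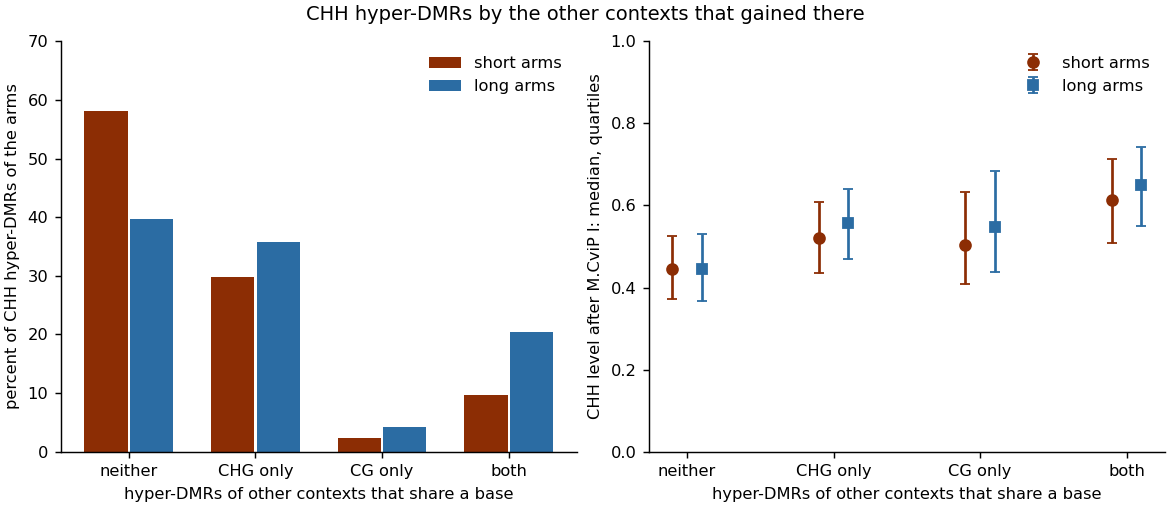
CHH hyper-DMRs of the short arms (brown) and long arms (blue) divided by the hyper-DMRs of other contexts that they overlap, as percent of the arms' CHH hyper-DMRs (left) and as CHH level after M.CviP I (fraction, median with quartiles, right). Regions with neither make up 58.1% on the short arms and 39.7% on the long arms and have a median of 0.446 on each.

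A similar division was made by the losses after zebularine. On the short arms, 46.7% of CHH hyper-DMRs overlapped CG hypo-DMRs, against 28.7% on the long arms. These shares lay near those of 500 bp windows that touched CG hypo-DMRs, 45.4% on the short arms and 28.0% on the long arms. The cover of CG hypo-DMRs by bases was 23.9% on the short arms and 13.5% on the long arms. Regions with such an overlap had a median CHH level after M.CviP I of 0.472 on the short arms and 0.487 on the long arms. Regions without it had 0.489 on the short arms and 0.547 on the long arms. Those that overlapped CG hypo-DMRs but neither CG nor CHG hyper-DMRs made up 33.6% of the CHH hyper-DMRs on the short arms and 17.6% on the long arms, and their median was 0.458 on each.

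Other overlaps are given with the cover of the set overlapped or the windows that it touched. CHG hyper-DMRs overlapped CG hypo-DMRs in 26.0% of cases on the short arms and 15.0% on the long arms. CG hypo-DMRs covered 23.9% of the short arms and 13.5% of the long arms, and touched 45.4% and 28.0% of the 500 bp windows there. The overlaps thus lay below the shares of windows. CHG hyper-DMRs were shorter than a window, with medians of 390 bp on the short arms and 350 bp on the long arms. In reverse, 22.4% of the CG hypo-DMRs on the short arms and 30.2% on the long arms overlapped CHG hyper-DMRs. These covered 19.1% of the short arms and 27.4% of the long arms, and they touched 38.1% and 53.1% of the 500 bp windows there. CG hypo-DMRs were shorter than a window, with medians of 406 bp on the short arms and 343 bp on the long arms. The overlap of CG hyper-DMRs with CHG hyper-DMRs hardly depended on the arm, with 77.4% on the short arms and 78.4% on the long arms. CHG hypo-DMRs overlapped CG hypo-DMRs in 75.3% of cases on the short arms and 73.4% on the long arms. Both shares lay above the 45.4% and 28.0% of windows that touched CG hypo-DMRs. The order of the arms differed between the chromosomes, with 78.8% (82 of 104) on the short arm and a lower share (119 of 170) on the long arm of chromosome 4, and 70.9% on the short arm and 78.0% on the long arm of chromosome 10. For CHH hypo-DMRs the share was 50.8% on the short arms and 39.5% on the long arms, against the same 45.4% and 28.0% of windows. CHH hypo-DMRs were much shorter than a window, with medians of 183 bp on the short arms and 174 bp on the long arms. The order of the arms differed again between the chromosomes. The share was 60.6% on the short arm and 33.9% on the long arm of chromosome 4, and 40.6% on the short arm and 48.6% on the long arm of chromosome 10.

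CG hypo-DMRs of the short arms were also longer. Their median length was 406 bp with 27 cytosines on the short arms and 343 bp with 24 cytosines on the long arms, and the number of CG cytosines per 100 bp was 7.97 on the short arms and 7.95 on the long arms. CHG hypo-DMRs had median lengths of 425 bp on the short arms and 346 bp on the long arms, and CHG hyper-DMRs 390 bp on the short arms and 350 bp on the long arms. CG hyper-DMRs went the other way, with 235 bp on the short arms and 247 bp on the long arms. CHH hyper-DMRs had the same median length of 493 bp on each, close to the largest length in the lists, 501 bp. After CG hypo-DMRs within 100 bp of each other were merged, runs of at least 2 kb numbered 97 on the short arms, or 6.98 per Mb, and 101 on the long arms, or 2.74 per Mb.

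The longest such run of CG hypo-DMRs on the short arms lay on chromosome 4 from 1486098 to 1490902. It joined 10 regions over 4805 bp, with median CG levels of 0.799 after zebularine and 0.949 in CK. The longest run of CHH hyper-DMRs lay near the start of chromosome 10, from 16476 to 44944, and joined 56 regions with 4083 CHH cytosines over 28469 bp. Its median CHH level was 0.428 after M.CviP I and 0.0536 in CK. The longest run of CHG hyper-DMRs, on chromosome 10 from 2102999 to 2105987, joined 6 regions over 2989 bp, with median CHG levels of 0.556 after M.CviP I and 0.247 in CK. The longest run of CG hyper-DMRs, on chromosome 10 from 2755893 to 2757921, joined 4 regions over 2029 bp and lay in the bin with the most CG hyper-DMRs. In the hypo-DMR list, the longest CHG run joined 2 regions over 997 bp on chromosome 4 from 6871885 to 6872881, and the longest CHH run was a single region of 501 bp on chromosome 10 from 6051600 to 6052100.

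The regions with the largest differences on the short arms, among those with at least 10 cytosines, are given as examples of single places. They were picked for their difference, so their values are a description. The largest CG loss lay on chromosome 10 from 4043450 to 4043681, where 19 cytosines had a level of 0.381 after zebularine and 0.974 in CK. It shared bases with a CHG hypo-DMR and a CHH hyper-DMR. The largest CHG loss, on chromosome 10 from 5672049 to 5672429, had 0.207 after zebularine and 0.622 in CK over 17 cytosines and lay over a CG hypo-DMR. The largest CHH loss, on chromosome 4 from 4722146 to 4722205, had 0.150 after zebularine and 0.464 in CK over 10 cytosines and shared no base with any other set.

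The largest gains started from a level of 0 in CK in each context. In CG, 13 cytosines on chromosome 4 from 7106868 to 7106968 reached 0.989 after M.CviP I against 0 in CK, in a region that overlapped CHG and CHH hyper-DMRs. In CHG, 17 cytosines on chromosome 10 from 5866984 to 5867448 reached 0.996 after M.CviP I against 0 in CK. This region shared bases with CG and CHH hyper-DMRs and with a CG hypo-DMR of the zebularine pair. In CHH, 11 cytosines on chromosome 10 from 2691199 to 2691510 reached 0.994 after M.CviP I against 0 in CK, where CG and CHG hyper-DMRs were also listed. Whether these places lie in genes or transposons was not analysed here.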

How the data were processed

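The 4 bisulfite libraries entered the deposited lists in pairs, zebularine with its CK and M.CviP I with its CK. According to the methods, Fastp trimming and Bismark alignment to MSU7.0 were used by the authors, who kept positions with at least 3 uniquely mapped reads and called regions with CGmapTools at a p-value under 0.01 and a difference of at least 0.1. Each deposited level is a fraction between 0 and 1, averaged over the cytosines of a region. The deposited p-value is that of the authors' region test across cytosines and was used here only as a stricter cutoff. A t statistic, the deposited score of the same test, was used only as finite or not. The authors' column of differences was not used, and differences were recomputed from the levels. The lists have no header, and treated and CK columns were identified from the direction each list is named for. Depth is unknown.

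Regions were assigned to arms by midpoint, and the largest region end stood for the end of a chromosome. Overlap means at least 1 shared base, and the windows genome-wide were of 500 bp. Incomplete bins were left out, which dropped the first 0.2 Mb of both short arms, and steps of 2 Mb were counted from the borders in the same way. Named were, per list and context, the short arm region with the largest absolute difference among those with at least 10 cytosines and a finite t statistic (ties by more cytosines, then the first position), the longest run merged within 100 bp, and the bins of highest and lowest density. The arms and all lists of comparisons were chosen with earlier results of these data known. Chromosome 9 was named after its values were seen. The counting was checked on simulated data. Sequence, GpC content, genes and transposons were not analysed here. Python 3.11.15 was used with numpy 2.4.6, pandas 2.3.3 and matplotlib 3.10.9. Alternatives were a p-value under 0.001, a difference of at least 0.2, at least 10 cytosines, merging, means and moved borders. Others were cover by any region as the length, the other 10 chromosomes as the reference, bins of 1 Mb, 50% overlap and each chromosome alone.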

Additional observations from a re-analysis of the deposited data

How the results depend on the processing

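Of 150 values under an alternative, 107 stayed the same, 29 moved and 14 changed sign or side. A level difference counted as moved outside the range that the 95% binomial intervals of its medians allow, an overlap outside its 95% binomial interval, and a density or count of bins beyond 1.5 times, and these intervals treat regions as independent, which neighbours are not. Of 54 density ratios, 52 stayed within 1.5 times on the same side. The exception was CHH hyper-DMRs, at 0.928 after merging within 100 bp and 0.993 per Mb covered by any region, against 1.014 in the lists. Short minus long arm level differences follow. For CG hypo-DMRs, the CK difference of 0.0013 became 0.00987 with means, -0.0001 with a p-value under 0.001 and 0.0062 with a minimum difference of 0.2, and the treated difference of 0.0058 became 0.0166, 0.00235 and 0.0164, and 0.00305 with at least 10 cytosines. For CHG hypo-DMRs, chromosome 4 alone gave -0.00845 in CK and -0.0231 treated, and a p-value under 0.001 gave 0.183 treated, against 0.0335. For CHH hypo-DMRs, chromosome 4 alone gave 0.00405 in CK, and the treated difference was -0.0130 with means, -0.0062 with at least 10 cytosines and -0.00165 on chromosome 10 alone. For CG hyper-DMRs, the CK difference of 0.0055 became 0.0249 with means, 0.0029 with a p-value under 0.001, 0.0103 with at least 10 cytosines and 0.0027 on chromosome 10 alone. For CHG hyper-DMRs, the CK difference of 0.0157 became 0.0875 with means, 0.00615 with a p-value under 0.001, 0.0105 with a minimum difference of 0.2, 0.0342 with at least 10 cytosines, 0.0237 on chromosome 4 and 0.00955 on chromosome 10. The treated difference became -0.000109 with means, -0.0068 with a p-value under 0.001, -0.0100 with a minimum difference of 0.2 and -0.0037 on chromosome 10. For CHH hyper-DMRs, the CK difference of 0.0112 became -0.00656 with means, 0.0130 with a minimum difference of 0.2, 0.0124 with borders moved by 1 Mb, 0.0123 on chromosome 4 and 0.0091 on chromosome 10. The treated difference was -0.0418 with means, -0.0517 with moved borders, -0.0510 on chromosome 4 and -0.0394 on chromosome 10. With bins of 1 Mb, 23.1% of short arm bins lay below the long arm median for CHH hypo-DMRs, against 48.1%. Where 50% of a region had to overlap, short minus long arm shares were 7.66 points for CHG hyper-DMRs with CG hypo-DMRs, 12.2 for CHH hyper-DMRs with CG hypo-DMRs and -11.4 for CHH with CHG hyper-DMRs, against 10.98, 17.95 and -16.6 with 1 shared base. The cause was not tested. No paired analysis was possible because there was only 1 library per condition and no test was made.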
